A study of Mus musculus with 10 samples.

Results

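The genes described here belong to 3 transcription factor families that set regional and cell identity in the gut epithelium: Cdx1 and Cdx2, Gata4, Gata5 and Gata6, and Hnf4a and Hnf4g. The genes were chosen by name, as 7 of the 31053 genes in the count matrices, and UMI counts (unique molecular identifiers, 1 per captured RNA molecule) were summed per library and per cell class. All 7 passed the filter on low counts. The single-cell 3′ libraries came from mouse intestinal organoids (8 libraries) and from mouse colonic crypts (2 libraries).

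The organoids were grown from crypts of the proximal small intestine of mice aged 6 to 12 weeks. ENR-organoids received EGF at 50 ng/mL, Noggin at 100 ng/mL and R-Spondin 1 at 500 ng/mL (n = 3 libraries, at passage 2, 7 and 3). Hyper-organoids received LDN193189 at 0.2 µM, GSK-3 Inhibitor XV at 0.1 µM, Pexmetinib at 1 µM, VPA at 500 µM, EPZ6438 at 2 µM, EGF at 50 ng/mL, 10% R-Spondin 1 conditioned medium and FGF2 at 20 ng/mL (n = 3, at passage 1, 6 and 3). -VE-organoids had the Hyper medium without VPA and EPZ6438, which inhibit histone deacetylases and the histone methyltransferase EZH2 (n = 2, at passage 1 and 6). Replicates 1, 2 and 3 carry the label prefixes 2, 6 and C, which are called culture series here. The labels do not say whether replicates 1 and 2 of a medium are separate cultures or 1 culture at 2 passages. The fits treat them as independent. Hyper replicates 1 and 2 and both -VE libraries were derived from ENR-organoids, whereas both series C libraries started from primary crypts. Origin is therefore not balanced between Hyper and -VE. Hyper and ENR media share EGF and R-Spondin and differ in every other factor, so a difference between them belongs to no single agent. For the colon, 1 library each was made from crypts of the normal mouse colon and of the colon after DSS, which damages the colonic lining. C57BL/6 mice and an Lgr5 reporter line are named in the methods, with 8-week-old females for the colitis model, but the strain and number of mice behind each library are not given in the sources used here, and the p-values measure only the spread between these libraries.

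The authors kept 1983 to 4293 cells in each organoid library, 1132 in normal and 1933 in DSS crypts, with a median of 38173.5 to 50651.5 UMIs per organoid cell, 18374.5 in normal and 16051 in DSS crypts. No pair of libraries shared more than 5 barcodes. The 5 epithelial markers together reached 3855 to 4975 CPM (counts per 1e6, the UMIs of a gene relative to all UMIs) in the organoids, where 6 leukocyte markers together stayed at 0.665 CPM or less. In the colonic libraries the leukocyte markers reached 232 CPM in normal and 377 CPM in DSS crypts. The epithelial markers reached 14080 and 12290 CPM there, above the organoids. Hoxa13, a gene of the hindgut, was at 22.8 and 14.3 CPM in the colonic libraries and at most 0.0332 CPM in the organoids. Stroma and endothelium markers summed to at most 1.43 CPM in the organoids and to 22.96 and 59.33 CPM in normal and DSS crypts.

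Cdx1 and Cdx2 are homeodomain factors of the intestinal epithelium, and Cdx2 is the factor that separates intestinal from gastric identity in the embryo. Gata4 marks the duodenum and jejunum, where it holds back ileal genes, while Gata6 is present along the whole intestine. Hnf4a and Hnf4g are paralogous nuclear receptors that drive enterocyte genes, among them brush border and lipid transport genes. Each factor binds short DNA motifs, and several of them act on the same enhancers.

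Hnf4a has 2 start sites in RefSeq, and 3′ counts cannot tell their transcripts apart, so each Hnf4a value below is their sum. The 250 bases before each start are shown (RefSeq, GRCm38.p6) because Hnf4a fell in Hyper-organoids and because they hold the 1 motif found in the promoters of Hnf4a, Gata5 and Cdx2. Capitals mark a GATA motif, from base 199 to base 204, which begins 52 bases before the RefSeq start. GENCODE places the start of Hnf4a within this motif, so the bases that follow lie before the RefSeq start only.
Hnf4a, upstream start, chr2:163506607-163506856, plus strand: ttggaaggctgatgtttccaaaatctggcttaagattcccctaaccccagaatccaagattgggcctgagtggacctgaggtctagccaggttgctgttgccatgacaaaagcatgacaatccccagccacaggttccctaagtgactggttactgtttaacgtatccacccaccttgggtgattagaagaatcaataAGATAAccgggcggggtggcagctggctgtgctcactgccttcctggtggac
Hnf4a, downstream start, chr2:163546905-163547154, plus strand: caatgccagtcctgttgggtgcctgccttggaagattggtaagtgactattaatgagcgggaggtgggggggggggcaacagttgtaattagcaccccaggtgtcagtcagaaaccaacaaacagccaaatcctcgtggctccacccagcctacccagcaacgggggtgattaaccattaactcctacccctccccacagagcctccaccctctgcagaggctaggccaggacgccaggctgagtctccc
The downstream promoter held none of the motifs.

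The motifs were searched on both strands of the 250 bases before each start. For GATA factors they were AGATAA and TGATAA, which overlap in all but the first letter. For CDX factors the motif was TTTATG. For HNF4 factors it was CAAAGTC, and TATAAA was searched for the TATA box. Of 32851 RefSeq promoters of this length, 16.6% held a GATA motif, 10.8% the CDX motif, 3.84% the HNF4 motif and 12.4% the TATA motif. The promoters of Cdx2 (chr5:147307250-147307499) and Gata5 (chr2:180334680-180334929), both on the minus strand, held none of these letters. Gata5 had 22 CpG dinucleotides in its 250 bases and Cdx2 had 13, against 3 and 4 for the pair of Hnf4a promoters. Promoters of Cdx1, Gata4, Gata6 and Hnf4g were not analysed here.

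In GRCm38 coordinates (GENCODE vM21), Hnf4a lies at chr2:163506808-163572910 on the plus strand, Gata5 at chr2:180325133-180334699 on the minus strand and Hnf4g at chr3:3508030-3658052 on the plus strand. Cdx2 lies at chr5:147300805-147307270, Gata4 at chr14:63198922-63271692 and Cdx1 at chr18:61018862-61036199, all 3 on the minus strand, and Gata6 lies at chr18:11052064-11085635 on the plus strand. Hnf4a, Gata5 and Gata6 each overlap a gene on the opposite strand, which held 294, 335 and 5486 UMIs over the 8 organoid libraries against 127309, 12272 and 87898 UMIs for the members.

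The first comparison asked how the members differed between Hyper-organoids and ENR-organoids over all kept cells. Cdx1 and Hnf4g fell to about 0.5-fold and 0.4-fold of their ENR level, Hnf4a, Gata4 and Gata6 fell less, Gata5 rose, and Cdx2 did not pass the test. Of the 7 members, 6 passed edgeR's quasi-likelihood test at an adjusted p under 0.05, where 56.8% of the 16037 genes tested passed. The 5 lower members stand against 27.3% of all genes, and the 1 higher against 29.5%. The Hyper and ENR libraries did not overlap for 6 of 7 members and for 64.4% of all genes. Cdx1 and Hnf4g also met the 2-fold limit, as did 22.9% of all genes. The median log2 change was -0.45 over the members and -0.01 over all genes. Levels are given as CPM after TMM scaling, edgeR's correction for differences in RNA composition.

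Cdx1 was at 164, 175 and 150 CPM in ENR replicates 1, 2 and 3, at 123 and 129 in -VE replicates 1 and 2, and at 75.7, 83.8 and 84.5 in Hyper replicates 1, 2 and 3. The 3 media did not overlap, with ENR highest and Hyper lowest, an order whose share over all genes was not counted. Hyper was lower than ENR by a log2 change of -1.002 (SE 0.07, adjusted p = 1.58e-05), a fold of 0.499 that lies at the 2-fold limit. Within the culture series the log2 ratio was -1.11, -1.06 and -0.83.

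Hnf4g stood at 22.7, 21.8 and 24.1 CPM in ENR, 10.9 and 10.6 in -VE, and 6.30, 9.51 and 11.8 in Hyper. ENR lay above both other media, which overlapped each other. The log2 change from ENR to Hyper was -1.32 (SE 0.19, adjusted p = 0.000601), and by series it was -1.85, -1.20 and -1.03. Hnf4a was at 159, 164 and 157 CPM in ENR, 140 and 158 in -VE, and 95.1, 101 and 81.1 in Hyper. Its Hyper libraries lay below all others, with a log2 change of -0.79 from ENR (SE 0.08, adjusted p = 0.000115), while ENR and -VE overlapped.

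Gata4 was at 52.2, 52.6 and 49.8 CPM in ENR, 44.1 and 46.0 in -VE, and 38.6, 40.5 and 33.8 in Hyper, with a log2 change of -0.45 between Hyper and ENR (SE 0.07, adjusted p = 0.000784). Gata6 was at 101, 103 and 103 CPM in ENR, 97.5 and 96.6 in -VE, and 79.3, 74.3 and 73.6 in Hyper, with a log2 change of -0.44 (SE 0.05, adjusted p = 0.000112). For both genes the 3 media did not overlap, in the order ENR, -VE, Hyper, and the share of all genes with such an order was not counted. The step from ENR to -VE did not pass by edgeR in the fit on medium alone (adjusted p = 0.179 for Gata4 and 0.398 for Gata6). Gata5 went the other way, from 11.7, 11.3 and 12.4 CPM in ENR and 11.1 and 10.3 in -VE to 15.6, 14.6 and 13.3 in Hyper. It rose by a log2 change of 0.30 from ENR (SE 0.08, adjusted p = 0.0115), with series values of 0.41, 0.37 and 0.10. Within the classes described below, 0 of 5 gave a Gata5 change that passed between these media by edgeR, and 0 had an unadjusted p under 0.05. The log2 change there was -0.03 in stem cells, 0.22 in TA cells, 0.08 in goblet cells, 0.18 in enterocytes and -0.62 in enteroendocrine cells. Without ENR replicate 3 the Gata5 change in TA cells was 0.33 and passed by edgeR (adjusted p = 0.03065). Cdx2 was at 114, 122 and 122 CPM in ENR, 109 and 109 in -VE, and 98.8, 124 and 124 in Hyper. The Hyper range enclosed both other media, and the log2 change was -0.05 (95% interval -0.25 to 0.16, adjusted p = 0.68). Its sign was not stable, since the Cdx2 change was 0.06 without Hyper replicate 1 and 0.07 when only genes reaching 10 CPM in 2 or more libraries were tested.

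**Figure D1:**
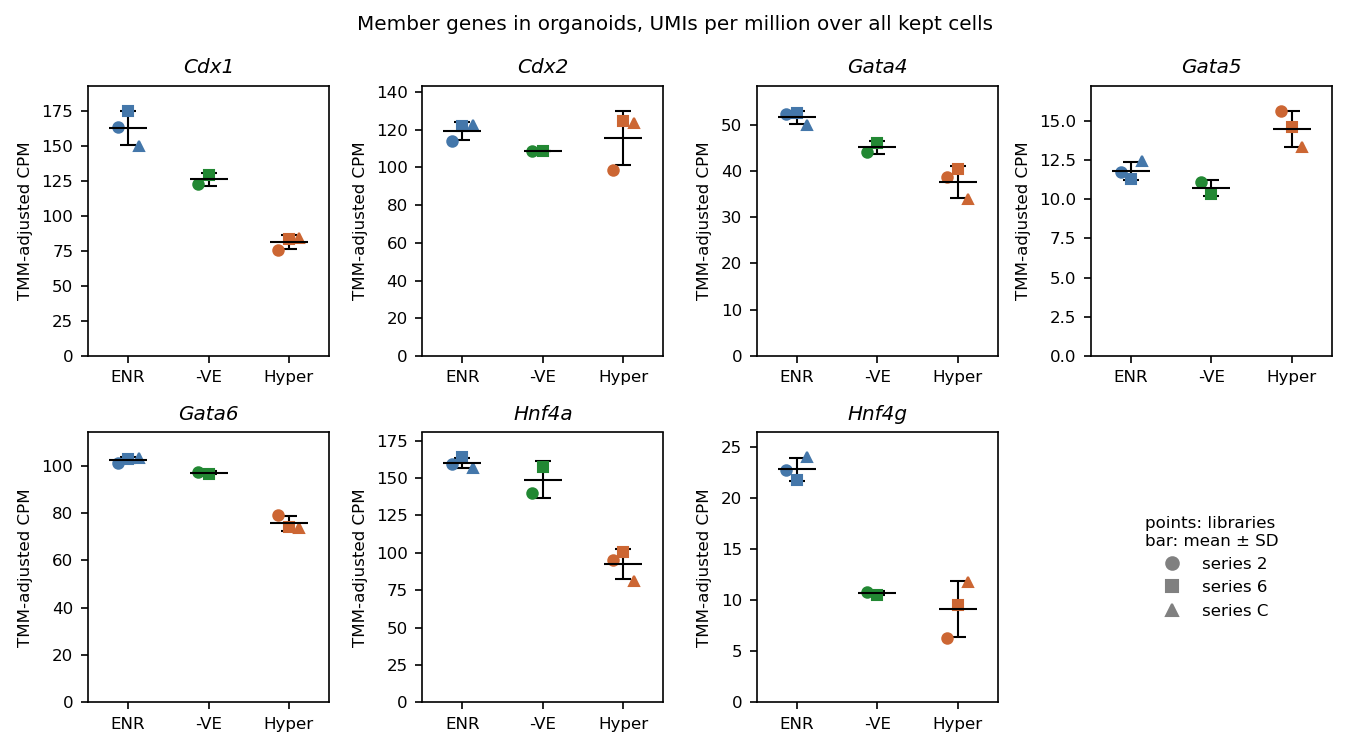
CPM after TMM scaling (vertical axis, from 0) of each member in the 8 organoid libraries, grouped by medium on the horizontal axis. Points are libraries shaped by culture series, and bars are the mean ± SD. Cdx1, Gata4 and Gata6 step down from ENR through -VE to Hyper without overlap, Hnf4g is lower in both other media than in ENR, Gata5 is highest in Hyper, and Cdx2 in Hyper spans 98.8 to 124 CPM. Between ENR and -VE, Gata4 and Gata6 did not pass in the fit on medium alone.

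The second comparison, Hyper against -VE, differed by the addition of VPA and EPZ6438 and, for Hyper replicate 3, by an origin from primary crypts. Of the members 5 passed, where 47.6% of all genes did, 4 lower (22.6% of all genes) and 1 higher (25% of all genes), and 0 met the 2-fold limit, which 18.6% of all genes met. Hnf4a fell by a log2 change of -0.69 (SE 0.09, adjusted p = 0.00073), Cdx1 by -0.63 (SE 0.08, adjusted p = 0.000494) and Gata6 by -0.36 (SE 0.05, adjusted p = 0.00097). Gata5 rose by 0.44 (SE 0.09, adjusted p = 0.00436). Gata4 fell by -0.26 (SE 0.08, adjusted p = 0.0243), a call that was lost without -VE replicate 1 (adjusted p = 0.0736), without -VE replicate 2 (adjusted p = 0.167), when only genes reaching 10 CPM in 2 or more libraries were tested (adjusted p = 0.135) and with plain library sizes (log2 change -0.12, adjusted p = 0.288), a scaling that moved the median of all genes to 0.15 as well, so that Gata4 stayed below it. Hnf4g differed by a log2 change of -0.22 (95% interval -0.71 to 0.26, adjusted p = 0.416) and Cdx2 by 0.09 (95% interval -0.14 to 0.32, adjusted p = 0.488). Without Hyper replicate 1 the Cdx2 change was 0.19 and passed (adjusted p = 0.0307).

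The third comparison, -VE against ENR, left out VPA and EPZ6438 on both sides. Origin was not balanced here either, since ENR replicate 3 started from primary crypts and series C had no -VE library. Here 2 members passed, where 7.88% of all genes passed, both of them lower (3.62% of all genes) and 0 higher (4.26% of all genes). Gata4 had an unadjusted p of 0.0376 without passing. Hnf4g fell by a log2 change of -1.09 (SE 0.22, adjusted p = 0.0248), past the 2-fold limit that 2.55% of genes passed, and Cdx1 fell by -0.37 (SE 0.08, adjusted p = 0.0317). The count fell to 0 without ENR replicate 1, ENR replicate 2, -VE replicate 1 or -VE replicate 2, and to 1, Cdx1, without ENR replicate 3. Where lost, the adjusted p was 0.0676 to 0.169 for Hnf4g and 0.0855 to 0.15 for Cdx1. The log2 change of Hnf4g stayed between -1.13 and -1.06 over all 8 fits that left out a library. With the culture series as a block, Gata4 passed as well, at a log2 change of -0.24 (adjusted p = 0.0387). The 3 comparisons share libraries, so their values are not independent of each other.

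The authors sorted the organoid cells into classes. Marker genes followed these names, with the hormone granule gene Chga at 1393 CPM in the enteroendocrine class against 0.54 in the others, and the stem cell gene Lgr5 at 127 CPM in the stem class against 87.1 CPM elsewhere. The make-up of the cultures differed between media. The enterocyte class held 9.78% to 13.1% of ENR cells, 5.68% to 6.23% of -VE cells and 0.249% to 1.65% of Hyper cells. Enterocyte progenitors held 22.2% to 34.5%, 4.29% to 4.39% and 0.0852% to 0.107%, and the stem class 9.75% to 14.7%, 24.3% to 28.2% and 40.0% to 44.1%, in the same order. The part of these shares in the differences over all cells was not tested, and the comparisons within classes below stand beside them.

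Each member had its own distribution over the classes of ENR-organoids, given here in plain CPM (the gene's share of the UMIs of its class, with no TMM scaling) as mean ± SD over the 3 ENR libraries. Hnf4g was the most uneven, at 60.6 ± 3.74 CPM in enterocytes (SD, n = 3), 23.1 ± 1.12 in enterocyte progenitors, 15.7 ± 1.72 in stem cells and 7.56 ± 1.47 in Paneth cells. Enterocytes were highest and lay apart from the other classes in all 3 libraries, and the ratio of the highest to the lowest class was 6.67 to 10.2. Hnf4a peaked one step earlier, at 177 ± 14.3 CPM in enterocyte progenitors, against 157 ± 7.36 in transit amplifying (TA) cells, whose range met that of the progenitors, 139 ± 3.71 in stem cells and 134 ± 1.81 in enterocytes. Stem cells and enterocytes did not differ beyond their spread, and goblet cells at 102 ± 5.60, enteroendocrine cells at 72.7 ± 17.8 and Paneth cells at 64.6 ± 16.0 were lower. Cdx1 followed the same order at the top, with 185 ± 20.98 CPM in enterocyte progenitors, but TA cells at 157 ± 16.7, stem cells at 151 ± 14.0 and goblet cells at 144 ± 16.2 overlapped.

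Cdx2 had its highest mean in TA cells, at 128 ± 3.35 CPM, above enterocyte progenitors at 117.5 ± 4.99 and overlapping enteroendocrine cells at 115 ± 18.7, and was lowest in goblet cells at 64.7 ± 9.003 and Paneth cells at 28.9 ± 4.79. Gata4 was at 56.9 ± 5.49 CPM in enterocytes and 54.9 ± 4.13 in enterocyte progenitors, which overlapped, and at 34.4 ± 3.21 in goblet cells and 16.0 ± 3.86 in Paneth cells. Gata6 was highest in enteroendocrine cells, at 130 ± 5.95 CPM, above TA cells at 111 ± 1.65. Gata5 was distributed differently. Enteroendocrine cells at 19.4 ± 3.45 and goblet cells at 18.2 ± 1.67 CPM were highest and overlapped, while enterocytes at 9.21 ± 0.899 and their progenitors at 9.12 ± 0.287 were lowest. Paneth cells were the lowest class for 5 members in all 3 ENR libraries (Cdx1, Cdx2, Gata4, Gata6 and Hnf4g) and for Hnf4a in 2 of 3. The share of all genes that were lowest in this class was not counted, so no trait of the members is read from it. A CPM value is a share of a class's RNA, and in the Paneth class the defensin gene Defa30 alone took 61830 CPM. In revival stem cells, counted in 1 library only (26 cells of Hyper replicate 3), Gata5 was at 27.8 CPM from 42 UMIs, above each other class of that library with at least 20 cells.

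**Figure D2:**
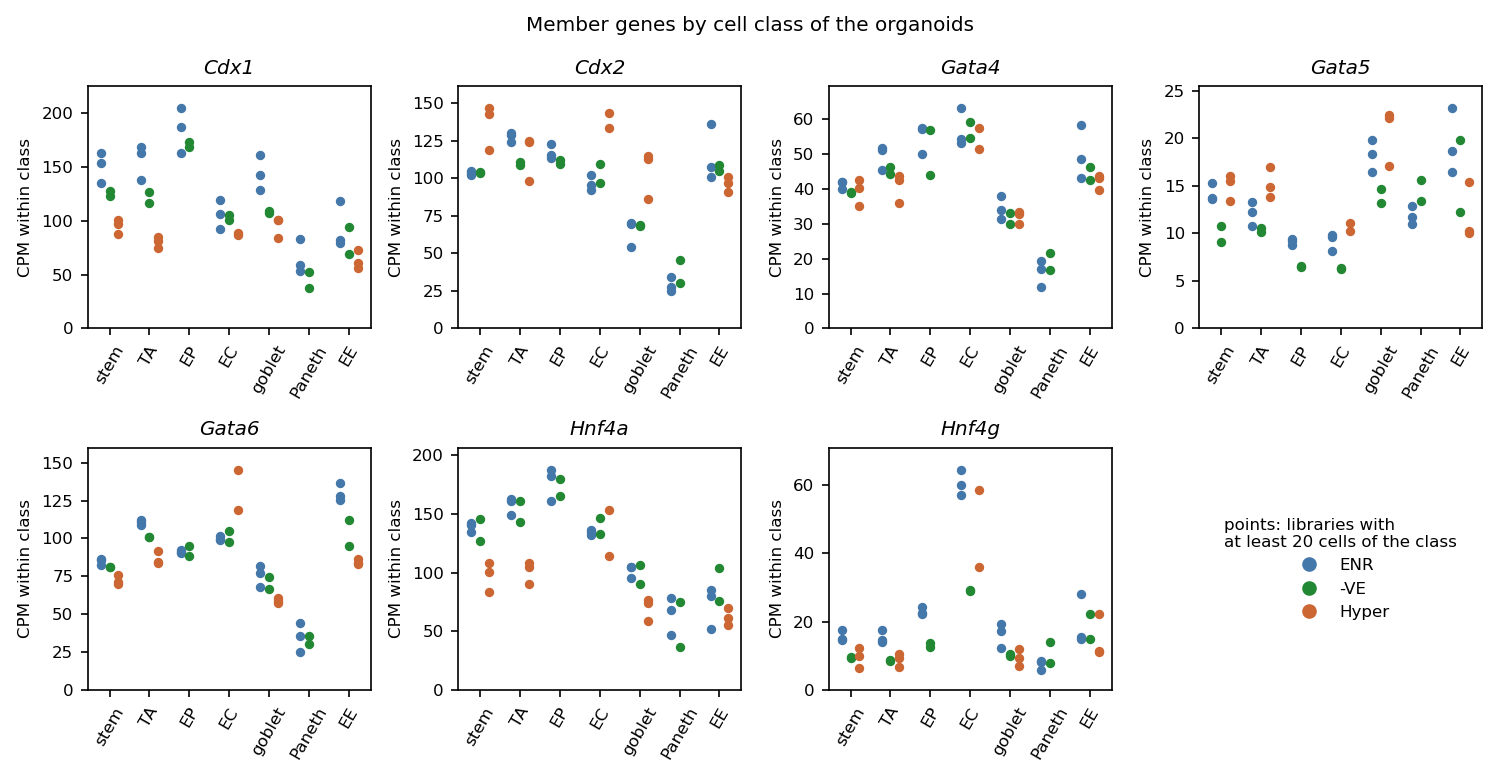
Plain CPM within each class (vertical axis, from 0) for every organoid library with at least 20 cells of the class, coloured by medium. EP marks enterocyte progenitors, EC enterocytes and EE enteroendocrine cells. In ENR-organoids Hnf4g peaks in enterocytes, Hnf4a and Cdx1 in enterocyte progenitors and Gata6 in enteroendocrine cells, and Gata5 is lowest in enterocytes and their progenitors.

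The stem and TA classes each join cells that the authors' clustering placed in separate clusters for Hyper- and ENR-organoids, and the deposited annotation used here gives the class only. A difference within these classes therefore compares different clusters under one name, and a change within one kind of cell cannot be told apart from it. Within the stem class, 5 members differed between Hyper and ENR, where 49.5% of 13920 genes did. Cdx1 was at 165, 157 and 144 CPM (TMM-scaled within the class) in ENR replicates 1, 2 and 3 and at 82.8, 96.3 and 94.0 in Hyper, a log2 change of -0.77 (SE 0.08, adjusted p = 5.1e-05). Hnf4a fell by -0.62 (SE 0.09, adjusted p = 0.000398), from 143 to 144 CPM in ENR to 81.2 to 103 in Hyper. Gata6 fell by -0.34 (SE 0.06, adjusted p = 0.00121) and Hnf4g by -0.82 (SE 0.21, adjusted p = 0.0103), the latter not passing without ENR replicate 1 (adjusted p = 0.0559). Gata4 differed by -0.18 (SE 0.07, adjusted p = 0.0618), and passed once culture series was a block (adjusted p = 0.037), while Gata5 differed by -0.03 (SE 0.12, adjusted p = 0.853).

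Cdx2 rose in stem cells, from 105, 107 and 108 CPM in ENR to 112, 140 and 139 in Hyper, where both -VE libraries were at 107 and 106. The groups did not overlap, and 58.2% of all genes in this class did not overlap either. The log2 change was 0.29 (SE 0.08, adjusted p = 0.0193). It kept its direction in each fit that left out a library, from 0.24 to 0.41 on the log2 scale, but did not pass without ENR replicate 1 (adjusted p = 0.0563), Hyper replicate 2 (adjusted p = 0.0552) or Hyper replicate 3 (adjusted p = 0.0544). Against -VE, Cdx2 in stem cells was higher by 0.28 (SE 0.09, adjusted p = 0.0334), a call lost without -VE replicate 1, -VE replicate 2, ENR replicate 2, Hyper replicate 2 or Hyper replicate 3 (adjusted p from 0.0644 to 0.163).

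In the TA class 6 members passed between Hyper and ENR, all lower, where 55.8% of all genes passed. Cdx1 fell from 165, 172 and 146 CPM to 71.0, 76.8 and 81.8, a log2 change of -1.07 (SE 0.08, adjusted p = 1.18e-05). Hnf4a changed by -0.74, Gata6 by -0.46, Gata4 by -0.39 and Hnf4g by -0.90 on the log2 scale. Cdx2 went from 125, 131 and 138 CPM in ENR to 92.9, 118 and 120 in Hyper, a log2 change of -0.25 (SE 0.09, adjusted p = 0.0471). That call was lost in 7 of the 8 fits without a library, the exception being the fit without Hyper replicate 3 (adjusted p from 0.0515 to 0.151 in the 7).

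Cdx2 thus differed in opposite directions in the classes named stem and TA, whose Hyper and ENR cells lie in separate clusters, and the difference between the classes was itself tested. The change in TA cells was lower than that in stem cells by 0.54 on the log2 scale (SE 0.04, adjusted p = 6.3e-07), in a fit with the library as a block where 14.5% of 14350 genes passed. In plain CPM, the stem to TA ratio of Cdx2 was 0.835, 0.812 and 0.783 in ENR replicates 1, 2 and 3, 0.951 and 0.942 in -VE, and 1.21, 1.18 and 1.15 in Hyper. The stem class therefore held less Cdx2 than the TA class in 3 of 3 ENR libraries and more in 3 of 3 Hyper libraries, with -VE between. The same test gave a lower change in TA than in stem cells for Cdx1 (log2 difference -0.31, adjusted p = 0.000222), Gata4 (-0.22, adjusted p = 0.0139) and Hnf4a (-0.13, adjusted p = 0.036). The differences of Cdx2 and Cdx1 passed in all 6 fits that left out a library. That of Gata4 was lost without ENR replicate 1, ENR replicate 2 or Hyper replicate 2 (adjusted p from 0.0553 to 0.0675), and that of Hnf4a in each fit but the one without Hyper replicate 3 (adjusted p from 0.0637 to 0.218).

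**Figure D3:**
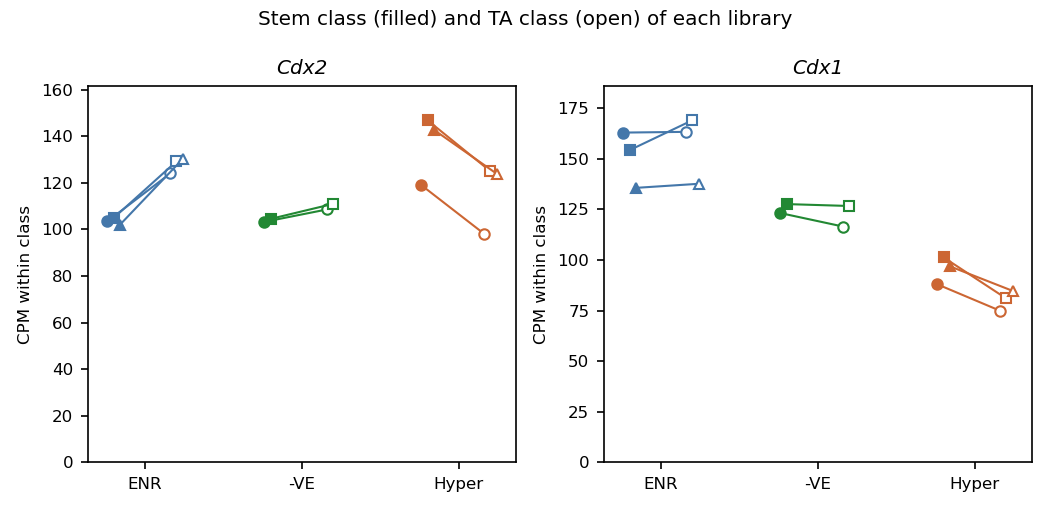
Plain CPM (vertical axis, from 0) of Cdx2 and Cdx1 in the stem class (filled) and the TA class (open) of the same library, joined by a line, for each medium on the horizontal axis. Shapes give the culture series (circle 2, square 6, triangle C). Cdx2 lines climb from stem to TA in ENR and descend in Hyper, and Cdx1 is lower in Hyper in both classes.

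In goblet cells 5 members passed between Hyper and ENR, where 31% of 11714 genes did. Cdx1 fell by a log2 change of -0.70, Hnf4a by -0.64, Gata6 by -0.47 and Hnf4g by -0.89, while Cdx2 rose by 0.59 (SE 0.14, adjusted p = 0.00661). Cdx2 in goblet cells was at 56.6, 70.0 and 75.0 CPM in ENR, 68.8 and 68.1 in -VE, and 81.7, 109 and 113 in Hyper, without overlap between Hyper and the other media. The share of all genes without such overlap is not given for this class. The Hnf4g call was lost without ENR replicate 1 (adjusted p = 0.0511) or ENR replicate 3 (adjusted p = 0.0676). Between goblet and stem cells the change differed for 0 members by edgeR, where 14.4% of genes passed, and 1 member, Cdx2, had an unadjusted p under 0.05.

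In enteroendocrine cells 1 member passed, where 14% of genes did. Gata6, which in ENR-organoids was highest in this class, fell by a log2 change of -0.55 (SE 0.12, adjusted p = 0.0111). Between enteroendocrine and stem cells the change differed for 0 members by edgeR, where 11.8% of genes passed, and Cdx2, Gata5, Gata6 and Hnf4a had an unadjusted p under 0.05. Cdx2 in enteroendocrine cells differed between Hyper and ENR by -0.18 (95% interval -0.45 to 0.10, adjusted p = 0.398), which was lower than the change in stem cells by 0.50 (adjusted p = 0.0569). Enterocytes could be compared with 2 Hyper libraries of 58 and 21 cells. There Cdx2 was higher in Hyper by 0.48 (SE 0.11, adjusted p = 0.0132) and Gata6 by 0.38 (SE 0.12, adjusted p = 0.0415), where 22% of genes passed. Gata6 was at 101, 100 and 105 CPM in ENR enterocytes and at 144 and 119 in Hyper replicates 2 and 3. Hnf4g in enterocytes did not pass (log2 change -0.49, adjusted p = 0.0862), with 57.6 to 68.4 CPM in ENR and 35.6 and 58.4 in Hyper. Without Hyper replicate 3 that change was -0.80. With the culture series as a block, Hnf4g passed as lower (log2 change -0.50, adjusted p = 0.0415). Gata6 missed the threshold with that block (adjusted p = 0.0525), and it did so without ENR replicate 1, ENR replicate 2, -VE replicate 1, -VE replicate 2 or Hyper replicate 2 (adjusted p from 0.0651 to 0.372). The Cdx2 call was lost without Hyper replicate 2 (adjusted p = 0.0988). The change of Gata6 in enterocytes exceeded that in stem cells by 0.55 (SE 0.12, adjusted p = 0.00886), and that of Hnf4a by 0.40 (SE 0.11, adjusted p = 0.0245), where 10.9% of genes passed. Neither passed without Hyper replicate 2 (adjusted p = 0.287 and 0.346), and Hnf4a did not without ENR replicate 1 (adjusted p = 0.1).

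**Figure D4:**
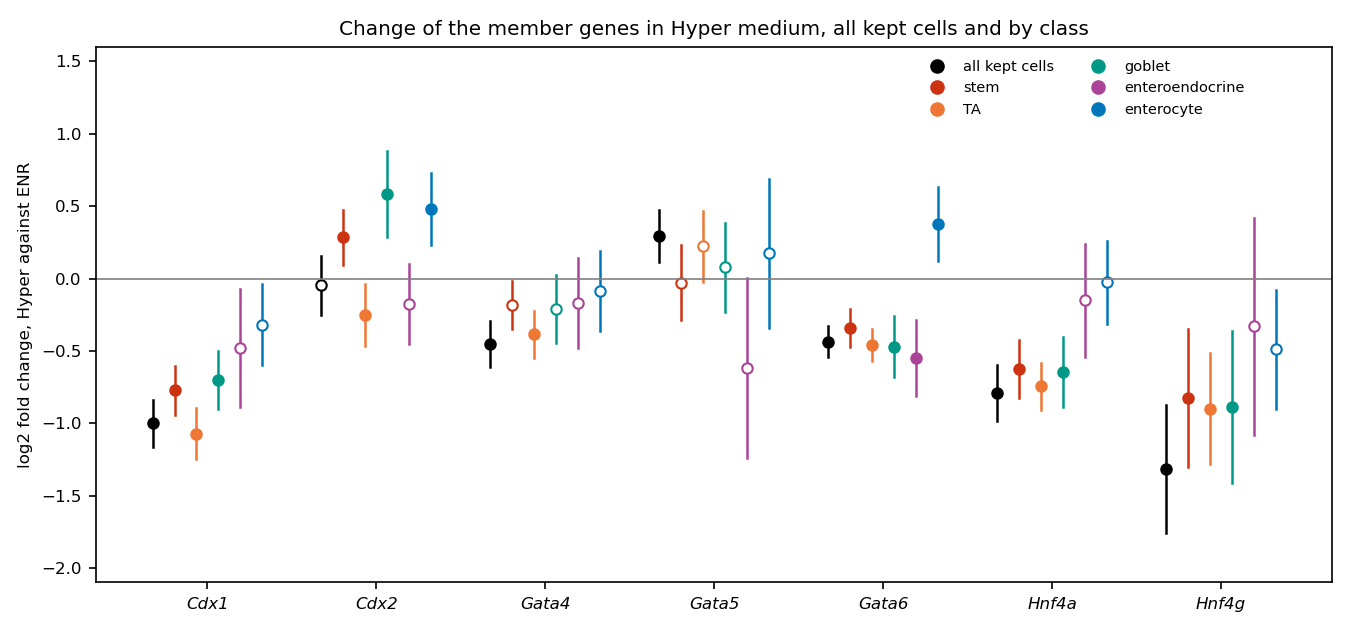
Log2 fold change of Hyper against ENR (vertical axis) for each member over all kept cells and within 5 classes, with unadjusted 95% intervals. Filled points passed at an adjusted p under 0.05. Cdx2 lies above 0 in stem, goblet and enterocyte classes and below 0 in TA and, with an interval that includes 0, enteroendocrine cells, while Cdx1 lies below 0 in each class drawn and Hnf4a does so in stem, TA and goblet cells, with intervals that include 0 in enteroendocrine cells and enterocytes.

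In Hyper against -VE, 5 members passed in stem cells, where 44% of genes did, and 5 in TA cells, where 47.3% did. Gata6 fell in stem cells by -0.27 (adjusted p = 0.00734), but not when only genes reaching 10 CPM in 2 or more libraries were tested (adjusted p = 0.0645). In goblet cells 4 passed (20.4% of genes), in enterocytes 1 (13.8%) and in enteroendocrine cells 0 (5.1%). Cdx2 rose in goblet cells by 0.56 (SE 0.15, adjusted p = 0.019), but not without -VE replicate 1, -VE replicate 2, Hyper replicate 2 or Hyper replicate 3 (adjusted p from 0.0546 to 0.128), and Gata6 fell there by -0.31 (adjusted p = 0.0488), a call kept in 1 of 8 fits without a library, that without ENR replicate 1. Hnf4a fell there by -0.55 (adjusted p = 0.00686), but not without -VE replicate 2 (adjusted p = 0.105). In TA cells Gata4 fell by -0.27 (adjusted p = 0.0228), but not without -VE replicate 1 (adjusted p = 0.0653) or -VE replicate 2 (adjusted p = 0.112). In enterocytes Cdx2 was higher by 0.45 (adjusted p = 0.0388) and missed the threshold with the culture series as a block (adjusted p = 0.0614) and without ENR replicate 1, ENR replicate 2, -VE replicate 1, -VE replicate 2 or Hyper replicate 2 (adjusted p from 0.0532 to 0.192). Hnf4g in enterocytes was higher in Hyper than in -VE by 0.63, which did not pass with all libraries (adjusted p = 0.0712). Without Hyper replicate 2, and so with Hyper replicate 3 alone, that change was 1.03. Gata5 rose in stem cells by 0.49 (SE 0.12, adjusted p = 0.0106), in TA cells by 0.44 (SE 0.12, adjusted p = 0.016) and in goblet cells by 0.52 (SE 0.15, adjusted p = 0.0278). In stem cells it was at 11.2 and 9.22 CPM in -VE, 14.6, 15.2 and 12.97 in Hyper, and 13.9, 13.9 and 16.3 in ENR, so that ENR and Hyper overlapped. Without -VE replicate 2, Gata5 did not pass in stem cells (adjusted p = 0.118), TA cells (adjusted p = 0.106) or goblet cells (adjusted p = 0.24), and it was lost in TA cells and goblet cells without -VE replicate 1 and in goblet cells without Hyper replicate 1 or Hyper replicate 2 as well. In -VE against ENR, 0 members passed in enteroendocrine cells (0.199% of genes) or, of the 6 tested there, in Paneth cells (1.28%), where Cdx1 passed once culture series was a block (log2 change -0.85, adjusted p = 0.0211). In the same comparison, Hnf4g fell in enterocytes by -1.12 (SE 0.16, adjusted p = 0.00363), from 59.8, 57.6 and 68.4 CPM in ENR to 29.1 and 27.9 in -VE, where 8.09% of genes passed. It fell in enterocyte progenitors by -0.77 (SE 0.11, adjusted p = 0.0164, 1.2% of genes passed), a call lost without ENR replicate 1, -VE replicate 1 or -VE replicate 2 (adjusted p from 0.0582 to 0.115). Cdx1 fell in goblet cells by -0.46 (SE 0.10, adjusted p = 0.0388, 2.23% of genes passed), a call lost in 6 of the 8 fits without a library, the exceptions being those without Hyper replicate 1 or 3. In stem cells (1.54% of genes) and TA cells (3.14%) 0 members passed by edgeR in that comparison with all libraries. Hnf4g passed as lower in stem cells without Hyper replicate 1 (adjusted p = 0.0182). It also did so in TA cells without Hyper replicate 1 (adjusted p = 0.00799) or Hyper replicate 3 (adjusted p = 0.0398). An unadjusted p under 0.05 was seen for Cdx1, Gata5 and Hnf4g in stem cells and for Cdx1, Gata6 and Hnf4g in TA cells, and DESeq2 passed 1 member in stem cells, Gata5 (log2 change -0.52, adjusted p = 0.0361).

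Per cell, with each cell thinned to 10000 UMIs, an Hnf4g UMI was seen in 18.1% to 19.3% of ENR cells, 9.27% to 9.57% of -VE cells and 6.08% to 12.3% of Hyper cells. Before thinning the shares were 47.9% to 54.2%, 30.9% to 37.5% and 26.7% to 39.0%. A Cdx1 UMI was seen in 70.9% to 76.4%, 64.6% to 67.9% and 54.7% to 56.6% of thinned cells, and in 90.8% to 95.04%, 90.9% to 93.7% and 86.7% to 92.1% before thinning. Thinning left out 63 to 280 cells of a library as too shallow.

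Members varied together to different degrees over 50 class-by-library sums of at least 20 cells, a description over points that share libraries, depth and classes. Pearson's r of log2 CPM was 0.893 for Gata4 and Gata6, 0.832 for Cdx2 and Gata4, 0.816 for Cdx1 and Hnf4a, and 0.469 for Cdx1 and Cdx2 and 0.359 for Hnf4a and Hnf4g. Gata5 was negative with each other member, from -0.505 with Hnf4a to -0.083 with Cdx2. Among 8016 genes with a mean of at least 10 CPM, the 3 most like Hnf4g were Ms4a10 (r = 0.889), Dhrs11 (0.863) and Cideb (0.858), and those most like Hnf4a were the respiratory chain genes Ndufs7 (0.941) and Ndufaf8 (0.929) and Pdss1 (0.914). Grk6, Anxa11 and H2afv were most like Cdx1 (0.863 to 0.871) and Snx6, Ndufs4 and Capza2 most like Cdx2 (0.931 to 0.932). Cask, Atp5l and Ncor1 were most like Gata4 (0.904 to 0.927), Ncor1, Pdhb and Smap1 most like Gata6 (0.905 to 0.929), and Tifa, Csrp1 and Litaf most like Gata5 (0.739 to 0.806).

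Other genes of the same network were counted by lists, between Hyper and ENR, and each count of genes that passed stands beside the 29.5% of all genes that were higher and the 27.3% that were lower. Of 24 related factors 18 passed the filter on low counts, 5 of them higher and 7 lower (median log2 change -0.05), the higher share being near that of all genes. The 3 Foxa genes, pioneer factors of the endoderm named here after their values were seen, rose by 0.41 to 0.57. Prox1 rose by 3.12, whereas the homeobox gene Isx fell by -2.97 and Creb3l3 by -2.097. Of 19 duodenal and jejunal enterocyte genes 2 rose and 11 fell (median -1.64). The sucrase gene Sis changed by -5.37, Apoa1 by -3.90, Apoc3 by -3.61 and Rbp2 by -3.46, and the adenosine deaminase gene Ada rose by 1.33. Of 8 ileal genes 2 rose, a share near that of all genes, and 4 fell (median -2.43), the bile acid genes Fabp6, Slc51a, Slc10a2 and Slc51b by -4.03 to -2.84. Among these Slc10a2 was low, with 263 UMIs over the 8 organoid libraries and at most 0.732 CPM. Cubn rose by 4.45, on 272 UMIs over the same libraries, with a median of 0.0345 CPM and a highest library of 1.23 CPM. The other, Nts, had 7, 365 and 56 UMIs in Hyper replicates 1, 2 and 3, 0 and 30 in -VE replicates 1 and 2 and 0 in each ENR library, so that most of its UMIs came from Hyper replicate 2. Of 12 colonic genes 8 were tested, with 2 higher, again near the share of all genes, and 6 lower (median -2.02). Aqp8, Car4, Ces1g and Slc26a3 fell by -6.78 to -2.40 and Mettl7b rose by 1.06. Car4 held only 160 UMIs over the 8 organoid libraries, at most 0.70 CPM, and Aqp8 held 668 UMIs, at most 2.16 CPM. Hoxb13 had 17, 49 and 94 UMIs in Hyper and 0 in each ENR and -VE library, with most of its UMIs in Hyper replicate 3. Of 12 gastric genes 5 were tested and 2 rose, Ctse by 1.48 and Gkn3 by 1.46. Ctse held only 106 UMIs over the 8 organoid libraries, at 0.0163 to 0.155 CPM, and Gkn3 was at 28.0 to 121 CPM. Enterocytes held 9.78% to 13.1% of ENR cells and 0.249% to 1.65% of Hyper cells, and their part in these lists was not tested. The stem class held 9.75% to 14.7% of ENR cells and 40.0% to 44.1% of Hyper cells, and its part was not tested either.

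The last comparison set the colonic crypts beside the small intestinal organoids, in plain CPM. Each colonic condition has 1 library, so no test was made, intervals cover counting error only, and region, culture, mouse and library cannot be told apart. Fewer cells of a type and less RNA per cell cannot be told apart either. Gata4 stood at 0.201 CPM in normal (4 UMIs, 95% exact Poisson interval 0.0547 to 0.514) and 0.185 CPM in DSS crypts (6 UMIs, 0.0680 to 0.403), against 35.5 to 51.9 CPM in the organoids. The lowest organoid library exceeded the 2 colonic libraries together by 186-fold (counting interval 101 to 388). Gata5 was at 0.703 CPM (14 UMIs) and 0.617 CPM (20 UMIs), against 9.97 to 16.6 CPM, a fold of 15.3 (10.9 to 22.2) for the lowest organoid library.

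Gata6, the third GATA factor, was close to the organoids by comparison, at 69.7 and 60.1 CPM against 77.3 to 101 CPM. Cdx1 lay above all organoids at 253 and 276 CPM (organoids 80.6 to 171), Cdx2 at 229 and 174 CPM (104 to 132) and Hnf4a at 196 and 175 CPM (85.2 to 160). Hnf4g, at 10.95 and 11.5 CPM, lay within the organoid range of 6.71 to 22.6. For 6 of 7 members both colonic libraries thus lay outside the 8 organoid libraries, as for 58.5% of 18105 genes with at least 20 UMIs, 3 of them above (26.9% of genes) and 3 below (31.7% of genes). The 6 stayed outside without colonic leukocytes, in cells with an Epcam UMI and no Ptprc UMI, and with all cells thinned to 5000 UMIs.

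**Figure D5:**
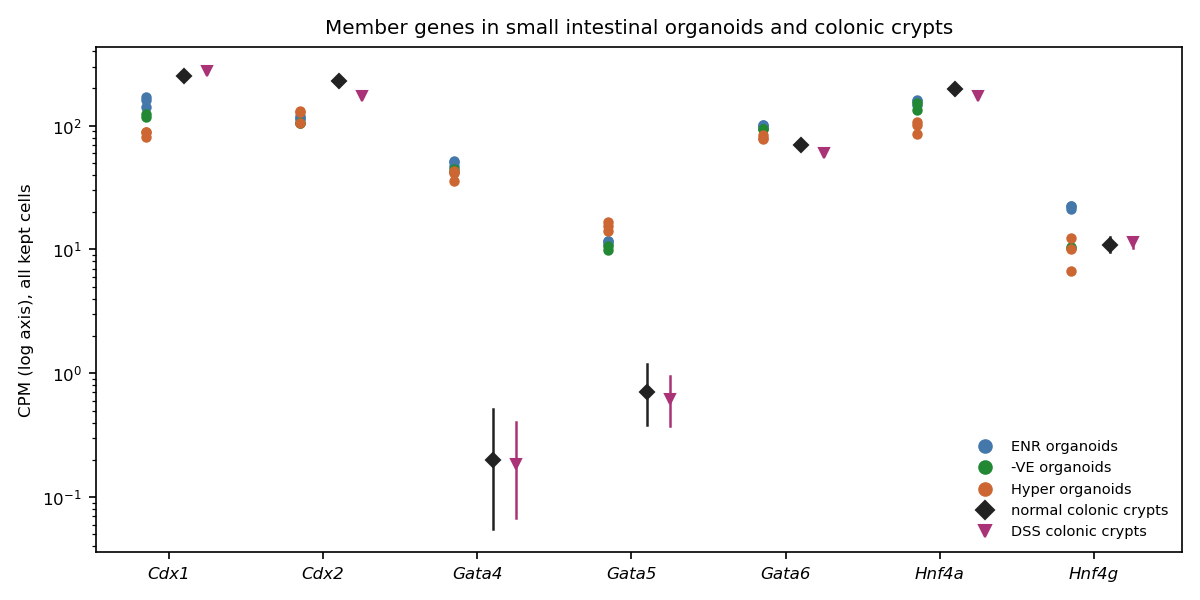
Plain CPM over all kept cells (vertical axis, logarithmic) of each member in the 8 organoid libraries (circles, by medium) and the 2 colonic crypt libraries with 95% exact Poisson intervals. Gata4 and Gata5 sit below 1 CPM in both colonic libraries, Cdx1, Cdx2 and Hnf4a lie above the organoids, and Hnf4g lies within their range.

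Per cell, 0.329% of 913 normal crypt cells outside the leukocyte clusters held a Gata4 UMI, against 0.457% of 219 cells in clusters where over 50% of cells held the leukocyte gene Ptprc, with median depths of 21790 and 3517 UMIs. In DSS crypts the shares were 0.403% of 1488 cells and 0 of 445 cells, with median depths of 20950 and 3532 UMIs. A count of 0 allows up to 0.674% of such cells to hold a UMI, which bounds detection at this depth and not the share of cells expressing the gene. Gata5 UMIs were in 0.767% and 1.14% of the epithelial cells and 0.457% and 0.225% of the leukocyte cells. The Gata4 UMI and both Gata5 UMIs of the normal leukocyte-rich clusters came from the 11 cells of cluster 18. That cluster also held Gata6 at 131 CPM (7 UMIs) and the collagen gene Col1a1 at 112 CPM. A Gata6 UMI was seen in 0.913% of the 219 cells. The other 4 such clusters held 0 UMIs of Gata4 and Gata5. In DSS crypts the 1 Gata5 UMI of these clusters was also in cluster 18, where Col1a1 was at 1735 CPM and Gata6 at 11.6 CPM (2 UMIs). Free RNA was not measured here, and no expression is read from the few colonic UMIs of either gene. Cdx1, by contrast, was in 84.1% and 84.6% of the epithelial cells and 2.74% and 5.84% of the leukocyte cells. In cells thinned to 10000 UMIs, at least 1 GATA gene was seen in 49.1% of normal and 44.0% of DSS crypt cells and in 71.0% to 78.5% of organoid cells, and both Cdx genes together in 72.9% and 63.04% against 34.2% to 50.2%. Thinning left out 458 of 1132 normal and 840 of 1933 DSS cells.

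Between DSS and normal crypts 5 members stayed under a 2-fold difference, which 10.5% of 13617 genes reached. For the other 2, Gata4 (ratio 0.922, counting interval 0.219 to 4.44) and Gata5 (0.878, 0.422 to 1.88), the UMIs were too few to tell, and with cells thinned to 5000 UMIs the Gata5 ratio was 0.41 on 3 normal and 2 DSS UMIs. The DSS to normal ratio was 0.759 for Cdx2 (counting interval 0.73 to 0.79), 0.862 for Gata6 (0.804 to 0.924), 0.890 for Hnf4a (0.854 to 0.927), 1.09 for Cdx1 (1.05 to 1.13) and 1.05 for Hnf4g (0.885 to 1.25). Leaving out the clusters rich in leukocytes, 5 clusters held at least 20 cells in both libraries, and there the Cdx2 ratios of the 2 libraries lay on both sides of 1. In the cluster the authors labelled stem (cluster 2, the one with the most Lgr5 of those shared) it was at 238 and 312 CPM in normal and DSS crypts, a ratio of 1.31 (1.18 to 1.45). In cluster 5, with high Muc2, it was at 152 and 102 CPM, a ratio of 0.671 (0.57 to 0.792). In the other 3 its counting intervals included 1. Cdx1 had a ratio of 1.13 (1.03 to 1.24) in cluster 1 and 0.855 (0.752 to 0.974) in cluster 6, and Gata6 one of 0.801 (0.672 to 0.958) in cluster 1. Hnf4g in cluster 5 went from 5 to 29 UMIs, a ratio of 2.84 (1.09 to 9.41), and Hnf4a in cluster 1 from 157 to 203 CPM, a ratio of 1.3 (1.15 to 1.46). Cluster 4, with 230 DSS and 11 normal cells, held Cdx2 at 66.4 CPM and Cdx1 at 424 CPM in DSS crypts, and at 56.9 CPM (13 UMIs) and 429 CPM (98 UMIs) in its normal cells. Cluster 10, with 103 DSS and 6 normal cells, held 94.6 CPM of Cdx2 and 305 CPM of Cdx1 in DSS crypts, and 106 CPM (17 UMIs) and 262 CPM (42 UMIs) in its normal cells.

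Over the 9 normal clusters of at least 20 cells that were not rich in leukocytes, Cdx1 ranged from 143 CPM (cluster 12) to 376 (cluster 14) and Hnf4a from 69.7 (cluster 19, high in Muc2) to 590 (cluster 12, high in Aqp8). Gata6 ran from 24.0 in cluster 12 to 104 in cluster 2, so cluster 12 was highest in Hnf4a and lowest in Cdx1 and Gata6. In DSS crypts Gata6 was highest, at 119 CPM, in cluster 16, where Chga was at 15090 CPM. Gata4 did not exceed 1.17 CPM in any of these clusters of either library.

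Of the related factors, 9 lay above (26.9% of all genes did) and 4 below (31.7% of all genes) the organoids in both colonic libraries, 6 within their range, and 5 were under 20 UMIs in all. Those below included, named after their values were seen, Onecut2 (0 and 0.278 against 69.9 to 125 CPM), Pdx1 (0.201 and 0.432 against 6.38 to 16.7 CPM) and Zfpm1, a cofactor of GATA proteins (2.61 and 1.42 against 56.5 to 77.6 CPM). Those above included Klf4 (1027 and 674 against 32.9 to 53.9 CPM). They also included, named for their low counts, Gata2 (9 and 15 UMIs in normal and DSS crypts) and Gata3 (36 and 99 UMIs). All kept colonic cells entered these counts, leukocytes included, and the list was not counted without them. All 11 colonic genes found in the files and 6 of 8 ileal genes were above, beside 26.9% of all genes, and 12 of 19 duodenal and jejunal genes were below, beside 31.7%. Another 3 duodenal and jejunal genes were above. Of the gastric genes 2 were above and 3 below, with 3 under 20 UMIs.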

How the data were processed

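Single-cell 3′ RNA was measured in 8 organoid and 2 colonic crypt libraries. The authors aligned reads to mm10 and counted UMIs with Cell Ranger (version 3.0.0 per the processing notes, 3.1.0 in the matrix headers), analysed cells with Seurat 3.1.4, and deposited raw counts per gene and cell with a table of annotated cells. Doublet removal is not given in the sources used here, and no doublet step was run. The 25204 annotated cells were kept, of which 1375 have fewer than the stated minimum of 1500 genes, and the highest mitochondrial share was 20.0%. The deposited count table gave the same entries as the matrices for the 7 members, with 0 entries differing over 549892 UMIs. Kept UMIs ranged from 89124015 to 170019527 in organoid libraries and were 19906845 in normal and 32397122 in DSS crypts. Intervals cover counting error only.

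From these files, UMIs were summed per library, and per class and library with at least 20 cells. All genes passing filterByExpr were fitted together with edgeR 4.0.16 (quasi-likelihood test, TMM scaling, R 4.3.3) over the 8 organoid libraries, with Benjamini-Hochberg adjusted p-values over all genes tested. "Passed" means an adjusted p under 0.05. The difference of the Hyper effect between a class and the stem class was an interaction term with the library as a block. Colonic values are plain CPM with exact Poisson intervals and no test. The scripts were tested on simulated data with known changes. Alternatives were DESeq2 1.42.0, no filter, a test of only the genes reaching 10 CPM in 2 or more libraries, plain library sizes, the stated cell filter, cells thinned to a fixed number of UMIs, each library left out, and the culture series as a block. The deviations of ENR and Hyper libraries of the same series from their group means correlated at 0.192, 0.17 and 0.436 over 16037 genes (other pairs -0.292 to 0.129). The series numbers come from the labels, so the numbers were taken to pair the libraries in the alternative with a block. The main fits between media held the medium alone and did not use this pairing.

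The members and the gene lists were chosen with earlier results of these data known. All 7 members are named, and from each list the genes that passed with at least a 2-fold difference between Hyper and ENR, at most 4 in each direction by size. For each member the 3 genes most like it are named, by Pearson's r of log2 CPM with a prior count of 2 over genes with a mean of at least 10 CPM. Genes outside this rule are marked in the text. One gene that the rule names is not reported here. Sequences come from RefSeq on GRCm38.p6. Python 3.11.15 with numpy 2.4.6, scipy 1.17.1, pandas 2.3.3 and matplotlib 3.10.9 was used for the sums, intervals and plots.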

Additional observations from a re-analysis of the deposited data

Results flagged for a closer look

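For 6 values, the effect of Hyper against ENR in one class differed from that in the stem class by edgeR's interaction test with Benjamini-Hochberg adjustment. In TA cells the log2 change was lower than in stem cells by -0.54 for Cdx2 (adjusted p = 6.3e-07), by -0.31 for Cdx1 (adjusted p = 0.000222), by -0.22 for Gata4 (adjusted p = 0.0139) and by -0.13 for Hnf4a (adjusted p = 0.036). In enterocytes, with 2 Hyper libraries, it was higher than in stem cells by 0.55 for Gata6 (adjusted p = 0.00886) and by 0.40 for Hnf4a (adjusted p = 0.0245). The differences of Cdx2 and Cdx1 passed in all 6 fits that left out a library, whereas each of the other 4 was lost in at least 1 of them. The stem to TA ratio of Cdx2 was 0.783 to 0.835 in the 3 ENR libraries and 1.15 to 1.21 in the 3 Hyper libraries.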

How the results depend on the processing

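The change of Cdx2 between Hyper and ENR over all kept cells, which did not pass, turned from negative to 0.07 when only genes reaching 10 CPM in 2 or more libraries were tested, 0.0242 with cells thinned to 10000 UMIs and 0.0592 without Hyper replicate 1 (range over the fits without a library -0.0986 to 0.0592); the cause was not tested. With plain library sizes, an alternative chosen after seeing the data, it was 0.0809, but the median of all genes moved to 0.12 with it, so Cdx2 stayed below that median. Apart from the fits without a library, 50 of 53 counts of members stayed within 1.5 times. That total includes the counts of the colonic comparisons, which rest on no test and were the same in each setting. The exceptions were -VE against ENR in stem cells (1 with DESeq2, Gata5), Hyper against -VE in enterocytes (0 with the replicate block) and -VE against ENR in Paneth cells (1 with the replicate block, Cdx1).

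Leaving out a library in turn, counts ranged from 6 to 6 for Hyper against ENR, 4 to 6 for Hyper against -VE and 0 to 2 for -VE against ENR over all cells. In the same order they ranged from 3 to 5, 3 to 5 and 0 to 1 in stem cells, while TA cells gave 3 to 5 for Hyper against -VE and 0 to 1 for -VE against ENR. Goblet cells gave 0 to 4 and 0 to 1 for that pair of comparisons. Enterocytes gave 0 to 3 for Hyper against ENR and 0 to 2 for Hyper against -VE, and enterocyte progenitors 0 to 1 for -VE against ENR. Members whose change differed from that in stem cells numbered 2 to 4 in TA cells, 0 to 1 in enteroendocrine cells and 0 to 2 in enterocytes. A fit without a -VE library holds 1 of that medium, assumed to vary like the others. With the replicate block, the pairing of libraries by series, Gata4 passed in -VE against ENR (log2 change -0.24, adjusted p = 0.0387), as did Gata4 in stem cells and Hnf4g in enterocytes in Hyper against ENR, while Gata6 (Hyper against ENR) and Cdx2 (Hyper against -VE) were lost in enterocytes. Beyond these and Cdx1 in Paneth cells, the block changed no call of a member over all cells or within a class. With cells thinned to 5000 UMIs, the log2 DSS to normal ratio moved to -1.285 for Gata5, -0.0663 for Gata6 and -0.3481 for Hnf4a. Depth limits Gata4 and Gata5 in the colon, at 4 to 20 UMIs a library.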
